A study of Homo sapiens with 4 samples.

Results

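The kinases that phosphorylate SR proteins, with the related DYRK1A, were followed in leukemia cells treated with the U2AF1 inhibitor SF1-8. The genes were CLK1, CLK2, CLK3, CLK4, SRPK1, SRPK2 and DYRK1A, and each was read from the entry of the deposited table that names it, taking the entry with the highest mean count. These are 7 of the 62778 entries that name a gene, and all 7 passed the filter on low counts that left 26167 entries for testing. K562 is an established erythroleukemia line, and the K562-U2AF1_S34F cells carry an overexpressed U2AF1 with the S34F change in both groups. RNA was sequenced from 2 libraries of cells given the solvent DMSO and 2 libraries of cells given SF1-8, a small molecule against the UHM domain of U2AF1, at 30 µM for 48 h. No library from K562 cells without the mutant or from untreated cells was analysed here, and the labels do not say whether replicates were separate cultures, so that every p-value below measures only the spread between these libraries.

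SR proteins are splicing factors with a tail of alternating arginine and serine residues, and the phosphorylation of these serines sets where the protein resides and which RNAs and partners it binds. SRPK1 and SRPK2 act mainly in the cytoplasm and phosphorylate the tail in a way that allows nuclear import by TNPO3. The CDC2-like kinases CLK1 to CLK4 act in the nucleus, release SR proteins from nuclear speckles and are known to affect intron retention in transcripts of the family. DYRK1A is a dual-specificity kinase of the same CMGC group, and it phosphorylates splicing factors as well as NFAT transcription factors and the cell cycle regulator LIN52. The question was whether the RNA of these kinases differed between the DMSO and the SF1-8 libraries.

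The libraries held 45522905 to 67554610 estimated counts, with DMSO 1 the shallowest, and between 11.7% and 14.9% of the counts lay on ribosomal RNA loci. The erythroid markers of K562 were expressed at a summed 308 to 344 FPKM (fragments per kilobase of transcript, scaled to the depth of the library). HBG1, HBG2 and HBE1 share 1 merged entry at 27.5 to 33.3 FPKM, which this sum counts once for each gene. In edgeR's quasi-likelihood test, 0 of the 7 tested erythroid entries reached an unadjusted p under 0.05, beside 4.33% of all tested entries. Of 10 stromal markers, 9 were lower in both SF1-8 libraries than in either DMSO library. Among all tested entries, 18.1% were lower in both SF1-8 libraries in this way and 17.3% were higher in both. The stromal markers had a summed 13.8 and 7.12 FPKM in the DMSO libraries and 3.91 and 1.06 FPKM in the SF1-8 libraries. Their median log2 fold change was -2.52. In edgeR, 6 had lower values at an unadjusted p under 0.05, beside 2.54% of all tested entries, and 0 had an adjusted p under 0.05. LUM had a count of 0 in both SF1-8 libraries. THY1 was the exception, with groups that overlapped and a log2 fold change of 0.15 (SE 0.79). Summed lymphoid markers stood at 5.79 and 5.15 FPKM under DMSO and at 4.40 and 4.33 FPKM under SF1-8, with 2 of 3 tested entries lower in both SF1-8 libraries, among them CD3E with counts of 42 and 25 under DMSO and 8 and 0 under SF1-8. Summed monocyte markers stood at 6.07 and 4.69 FPKM under DMSO and at 4.88 and 4.61 FPKM under SF1-8. LYZ alone was at 5.80 and 4.08 FPKM under DMSO and at 4.40 and 4.23 FPKM under SF1-8. Among the 4 tested monocyte entries, 1 was higher in both SF1-8 libraries and 0 were lower in both. The higher entry was CD14, with counts of 0 and 4 under DMSO and 12 and 12 under SF1-8. In edgeR, 0 of 3 lymphoid and 0 of 4 monocyte entries had an unadjusted p under 0.05. The marker genes named in this paragraph were picked after their values were seen.

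The 4 CLK genes encode one family, called the LAMMER kinases after a signature near the end of the kinase domain, and the coding stretch of that signature with 12 bases on each side is shown because it is the part by which the family is recognised. The stretches were taken from GENCODE 29 transcripts on GRCh38 and lie in exon 11 of 13 of each transcript, at chr2:200854636-200854692 (minus strand) for CLK1, chr1:155264241-155264297 (minus) for CLK2, chr15:74628607-74628663 (plus) for CLK3 and chr5:178605323-178605379 (minus) for CLK4. They are written 5′ to 3′ along the coding strand, and capitals mark bases that differ from CLK1.
CLK1: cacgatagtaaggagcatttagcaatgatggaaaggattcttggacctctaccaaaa
CLK2: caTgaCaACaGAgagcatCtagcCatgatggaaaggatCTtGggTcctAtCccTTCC
CLK3: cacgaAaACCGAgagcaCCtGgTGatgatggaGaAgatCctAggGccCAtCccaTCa
CLK4: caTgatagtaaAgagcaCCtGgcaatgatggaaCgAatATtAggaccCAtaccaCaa
Of the 57 bases, 13 differ from CLK1 in CLK4, 18 in CLK2 and 21 in CLK3.

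The whole coding sequences gave the same order of relatedness to CLK1. CLK1 and CLK4 were the closest pair with 77.0% identical aligned bases, CLK2 and CLK3 shared 66.8%, SRPK1 and SRPK2 shared 67.1%, and the other CLK pairs shared 59.5% to 64.3%. Among the pairs within the CLK genes and the pair of SRPK genes, the longest run of identical bases was 34, between CLK1 and CLK4. A search for 50-base words found none shared between any of the members. A gene outside the set shared 50-base words with CLK2 (8.89% of its words, all in the pseudogene CLK2P1), CLK3 (8.19%, in AC100835.1 and AL158077.1) and SRPK2 (3.66%, in NKAIN3 and SRPK2P), and reads from those stretches could have been counted on either gene. For CLK1, CLK4, SRPK1 and DYRK1A the share was 0%.

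SRPK1 had the highest level of the 7 kinases in every library, and the plot of FPKM by library shows the order of the others. By mean FPKM in the DMSO libraries, SRPK1 (33.3 ± 1.79, SD, n = 2) was followed by SRPK2 (7.15 ± 0.190), CLK2 (6.47 ± 2.01), DYRK1A (5.29 ± 0.336), CLK1 (3.01 ± 0.331), CLK4 (1.67 ± 0.0434) and CLK3 (1.09 ± 0.0350). CLK2 was not separated from its neighbours SRPK2 and DYRK1A, since in DMSO 1 it exceeded SRPK2 in both DMSO libraries while in DMSO 2 it was below DYRK1A. SRPK2 was above DYRK1A in all 4 libraries, with DYRK1A at 0.456 to 0.788 times its FPKM. In the SF1-8 libraries the order by mean was the same, and SRPK1 made up 56.9% to 60.4% of the summed FPKM of the 7 genes over all libraries, against 19.2% to 22.8% for the 4 CLK genes together. The levels depend on the length that the deposited FPKM assumes, because the count and FPKM of an entry together return a length of 5185 bases for CLK1, 5286 for CLK2, 20482 for CLK3, 8054 for CLK4, 10355 for SRPK1, 6357 for SRPK2 and 28337 for DYRK1A, which is 1.61 to 3.14 times the longest coding transcript in GENCODE. When the FPKM was rescaled to that longest coding transcript, the DMSO levels were 75.2 for SRPK1, 15.8 for CLK2, 12.3 for SRPK2, 8.54 for DYRK1A, 7.71 for CLK1, 5.23 for CLK4 and 2.13 for CLK3, and CLK2 then stood above SRPK2. The longest coding transcript has 17562 bases for DYRK1A and 10498 for CLK3. The transcripts with the longest coding sequence have only 6607 and 2621 bases for these genes. Scaling to those would raise both levels, so the places of DYRK1A and CLK3 in the order depend on the transcript chosen.

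**Figure D1:**
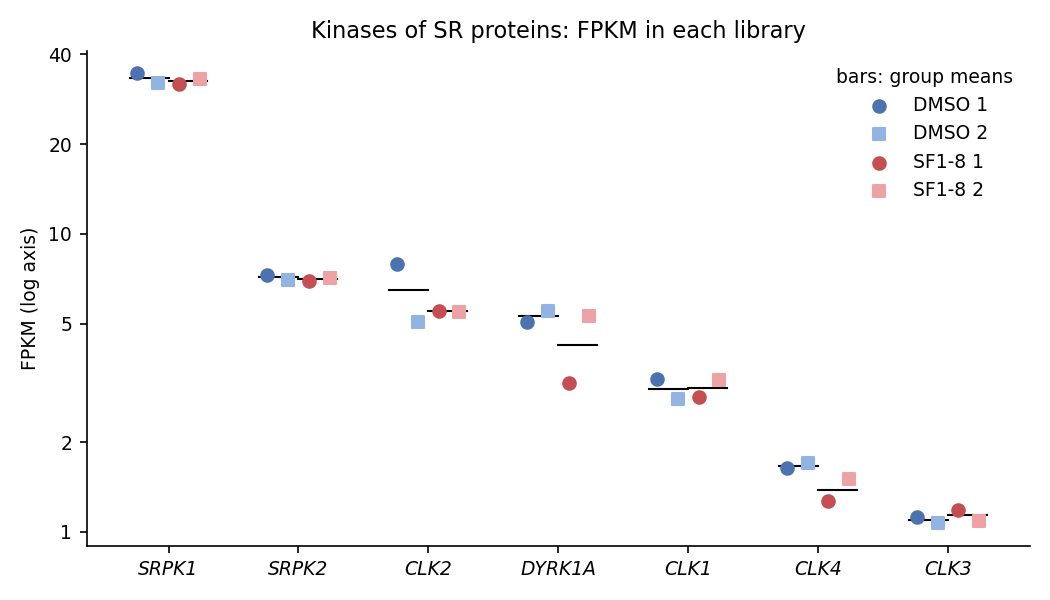
FPKM of the 7 kinase genes in each library on a log axis, ordered by the DMSO mean; circles and squares are replicates 1 and 2, blue is DMSO, red is SF1-8 and black bars are group means. SRPK1 sits at 32.0 to 34.6 FPKM in all libraries, CLK2 stands apart in DMSO 1 at 7.90 and DYRK1A in SF1-8 1 at 3.17.

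No kinase differed between SF1-8 and DMSO past the threshold. At an adjusted p under 0.05 in edgeR's quasi-likelihood test, 0 of the 7 genes were called, where 11 of the 26167 tested entries (0.042%) were called. At an unadjusted p under 0.05 the count was also 0 of 7, against 4.33% of all tested entries, and DESeq2 called 0 of 7 at either threshold. The groups did not overlap in CPM (counts scaled to the TMM-adjusted depth of the library) for 2 of the 7 genes, CLK3 and CLK4, and for 35.5% of all tested entries. The fold changes ran from -0.30 to 0.082 on the log2 scale with a median of -0.0062, beside a median of -0.011 over all tested entries. Their median size without sign was 0.082 on the log2 scale, against 0.22 over all tested entries and 0.081 over the 8312 entries at or above the mean log2 CPM of CLK4 (3.95), which is the lowest of the 7 kinases on this scale that takes no account of length.

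The 2 cytoplasmic kinases were the most even across libraries. SRPK1 (chr6:35832966-35921101, minus strand) was at 34.6 and 32.1 FPKM in the DMSO libraries and at 32.0 and 33.2 FPKM in the SF1-8 libraries. The groups overlapped, and the log2 fold change was -0.0062 (SE 0.060, adjusted p = 0.995), with a 95% interval from 0.895-fold to 1.11-fold. SRPK2 (chr7:105110704-105388898, minus strand) was at 7.28 and 7.01 FPKM under DMSO and at 6.94 and 7.12 FPKM under SF1-8. Its groups overlapped as well, with a log2 fold change of 0.0030 (SE 0.081, adjusted p = 0.999) and an interval from 0.868-fold to 1.16-fold. The level of SRPK1 was 4.57 to 4.75 times that of SRPK2 in the 4 libraries. The sign of both fold changes turned with the settings of the processing. SRPK1 overlaps LHFPL5 by 909 bases on the opposite strand and SRPK2 overlaps the methyltransferase gene KMT2E by 3658 bases on the opposite strand, and the strand setting of the counting is not given in the sources used here.

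Among the CLK genes, CLK1 and CLK4 are the closest relatives and are both known for transcripts with retained introns, which make up 8 of the 15 GENCODE transcripts of CLK1 and 7 of the 15 of CLK4. CLK1 (chr2:200853009-200864744, minus strand) was at 3.25 and 2.78 FPKM under DMSO and at 2.83 and 3.23 FPKM under SF1-8. In FPKM the SF1-8 values lay inside the range of the DMSO values, and the log2 fold change was 0.038 (SE 0.13, adjusted p = 0.989, 95% interval -0.30 to 0.38). CLK4 (chr5:178602664-178630615, minus strand) was at 1.64 and 1.70 FPKM under DMSO and at 1.26 and 1.50 FPKM under SF1-8. Both SF1-8 values were below both DMSO values, as was the case in CPM for 18.1% of all tested entries, and the log2 fold change was -0.24 (SE 0.15, adjusted p = 0.970, 95% interval -0.61 to 0.13). The FPKM of CLK1 was 1.98 and 1.64 times that of CLK4 in the DMSO libraries and 2.24 and 2.16 times in the SF1-8 libraries. These groups of ratios did not overlap, but with 2 against 2 the smallest p an exact permutation test can give is 0.333. The CLK4 entry also names RN7SKP70, a pseudogene of the small RNA 7SK of 271 bases that lies inside CLK4 on the same strand, so that its reads cannot be told apart from those of CLK4. The parent small RNA RN7SK stood at 3506 and 5588 CPM under DMSO and at 7789 and 6210 CPM under SF1-8, so that it was higher in both SF1-8 libraries while CLK4 was lower in both, and its part in the value of CLK4 was not tested.

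CLK2, which has no annotated retained-intron transcript among its 7 in GENCODE, was set apart by 1 library. CLK2 (chr1:155262868-155273504, minus strand) was at 7.90 and 5.05 FPKM under DMSO and at 5.53 and 5.48 FPKM under SF1-8. Both SF1-8 values lay between the DMSO values, and the log2 fold change was -0.20 (SE 0.20, adjusted p = 0.970, 95% interval -0.70 to 0.30). The DMSO libraries differed by 0.56 on the log2 CPM scale, a larger gap than for 93.7% of the 8312 entries at or above the CPM of CLK4 (median gap 0.11). Without DMSO 1 the log2 fold change was 0.11, and without DMSO 2 it was -0.45, with an unadjusted p of 0.012 and an adjusted p of 0.573 in edgeR, so that the direction rested on which control library was kept. The entry ends at base 155273504, while the GENCODE gene reaches its first base at 155278491, so that the first annotated exon was not part of the value. The SRPK2 entry ends at base 105388898, while its gene model begins at 105399308. Its annotated exons at 0 to 152 and at 9917 to 10064 bases from the gene start were not part of the value.

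CLK3 had the lowest FPKM of the kinases, which is a level per length, and the smallest gap between the DMSO libraries in CPM among the CLK genes. CLK3 (chr15:74598500-74645414, plus strand) was at 1.12 and 1.07 FPKM under DMSO and at 1.18 and 1.09 FPKM under SF1-8, and the groups overlapped in FPKM. In CPM it was at 27.9 and 28.2 under DMSO and at 31.0 and 28.4 under SF1-8, where the groups did not overlap, as for 17.3% of all tested entries in that direction. The log2 fold change was 0.082 (SE 0.11, adjusted p = 0.970, 95% interval -0.19 to 0.35). The entry overlaps EDC3, a gene of mRNA decapping on the opposite strand, over 14857 bases, which is the largest overlap with a protein-coding gene among the 7 kinases.

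DYRK1A had the largest fold change of the set and the largest gap between replicates. DYRK1A (chr21:37365573-37526358, plus strand) was at 5.05 and 5.53 FPKM under DMSO and at 3.17 and 5.29 FPKM under SF1-8. SF1-8 1 was low while SF1-8 2 lay between the DMSO values, and the log2 fold change was -0.30 (SE 0.24, adjusted p = 0.970, 95% interval -0.92 to 0.32). The SF1-8 libraries differed by 0.73 on the log2 CPM scale, more than for 96.1% of the 8312 entries (median gap 0.092). Without SF1-8 1 the log2 fold change was 0.021, and without SF1-8 2 it was -0.70, with an unadjusted p of 0.0024 and an adjusted p of 0.394 in edgeR. DYRK1A was 1 of 46 among 6066 well expressed entries (mean log2 CPM over 5) that were at least 0.5 lower on the log2 scale in SF1-8 1 than in each of the other libraries, a share of 0.758%. The summed CPM of the 7 kinases was 696 in SF1-8 1 and 783 to 786 in the other 3 libraries.

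**Figure D2:**
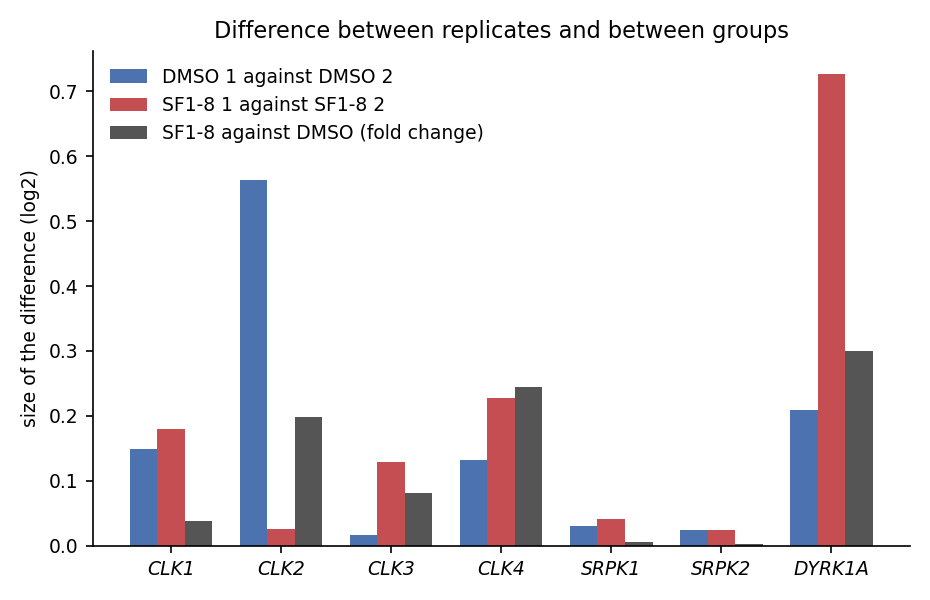
Size of the log2 difference between the DMSO replicates (blue), between the SF1-8 replicates (red) and between the groups (gray, edgeR fold change without its sign) for each kinase; the axis starts at 0. The DMSO gap of CLK2 (0.56) and the SF1-8 gap of DYRK1A (0.73) exceed the fold change of the same gene (0.20 and 0.30).

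**Figure D3:**
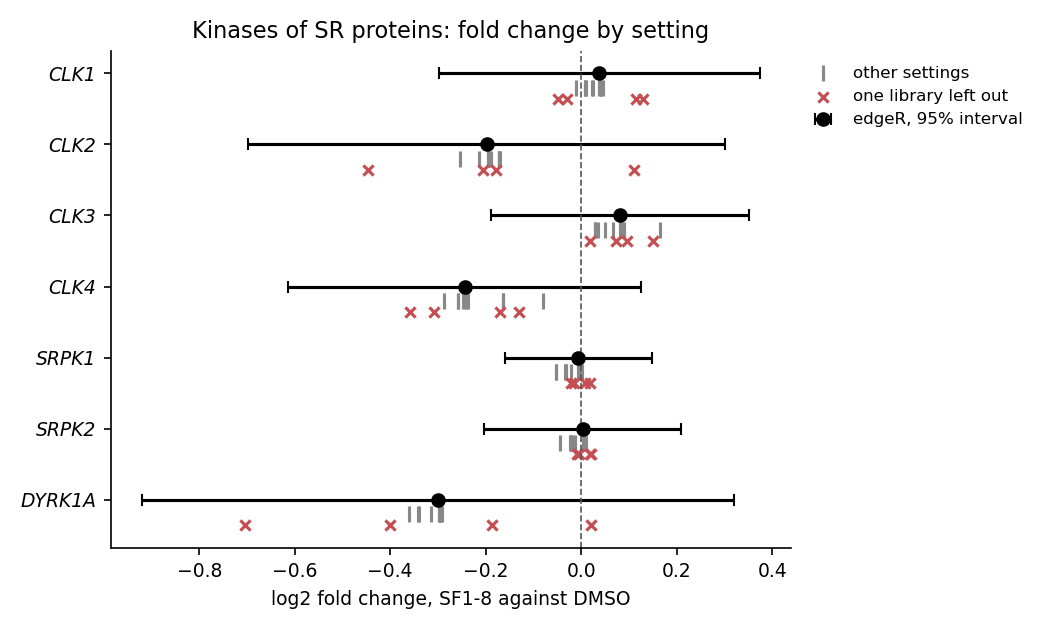
Log2 fold change of each kinase, SF1-8 against DMSO, with the 95% interval from edgeR (black), the other processing settings (gray ticks) and the fits that leave out 1 library (red crosses). Every interval spans 0, and the crosses of CLK2 (-0.45 to 0.11) and DYRK1A (-0.70 to 0.021) lie on both sides of it.

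The 5 entries of a single gene whose pattern over the 4 libraries was closest to that of DYRK1A were LINC01144, C1orf198, EIF4EBP1P1, PRSS16 and AC018462, with a root mean square difference of 0.0218 to 0.0455 in mean-centred log2 CPM. Over only 4 libraries a close match is easily found, and 835 tested entries lay within 0.2 of DYRK1A. C1orf198, for instance, was at 4.73 and 5.10 FPKM under DMSO and at 3.11 and 4.91 FPKM under SF1-8, with an adjusted p of 0.970 in edgeR.

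The table held 8 further entries that carry a kinase symbol, and 7 of these lay inside the gene with 0% of their bases in annotated exons, as the map of the loci shows. In SRPK2, 2 intronic entries were placed on the strand opposite to the gene (chr7:105341755-105346886 and chr7:105360502-105369444), with 1.03 to 1.46 and 1.21 to 1.48 FPKM over the libraries. Another entry, on the strand of SRPK2, at chr7:105373447-105376335, was at 0.999 and 1.27 FPKM under DMSO and at 1.58 and 1.56 FPKM under SF1-8. The SF1-8 values were both higher, with a log2 fold change of 0.49 (SE 0.23, unadjusted p = 0.082 and adjusted p = 0.970 in edgeR). Over the span chr7:105360502-105369444 an entry on the strand of SRPK2 had a count of 25 in DMSO 1 and 0 in the other libraries and was not tested. Entries without a strand lay in introns of CLK1, CLK2 and CLK3, with group means of 0.883 to 1.42 FPKM, and the CLK2 entry was at 1.69 and 0.763 FPKM in the DMSO libraries, the same order of the 2 control libraries as for CLK2 itself. The remaining entry, at chr21:37527620-37528028, began 1262 bases past the annotated end of DYRK1A and had counts of 35 and 11 under DMSO and 4 and 10 under SF1-8. It was lower in both SF1-8 libraries (log2 fold change -2.03, SE 1.08, adjusted p = 0.970), and its highest value was in DMSO 1.

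**Figure D4:**
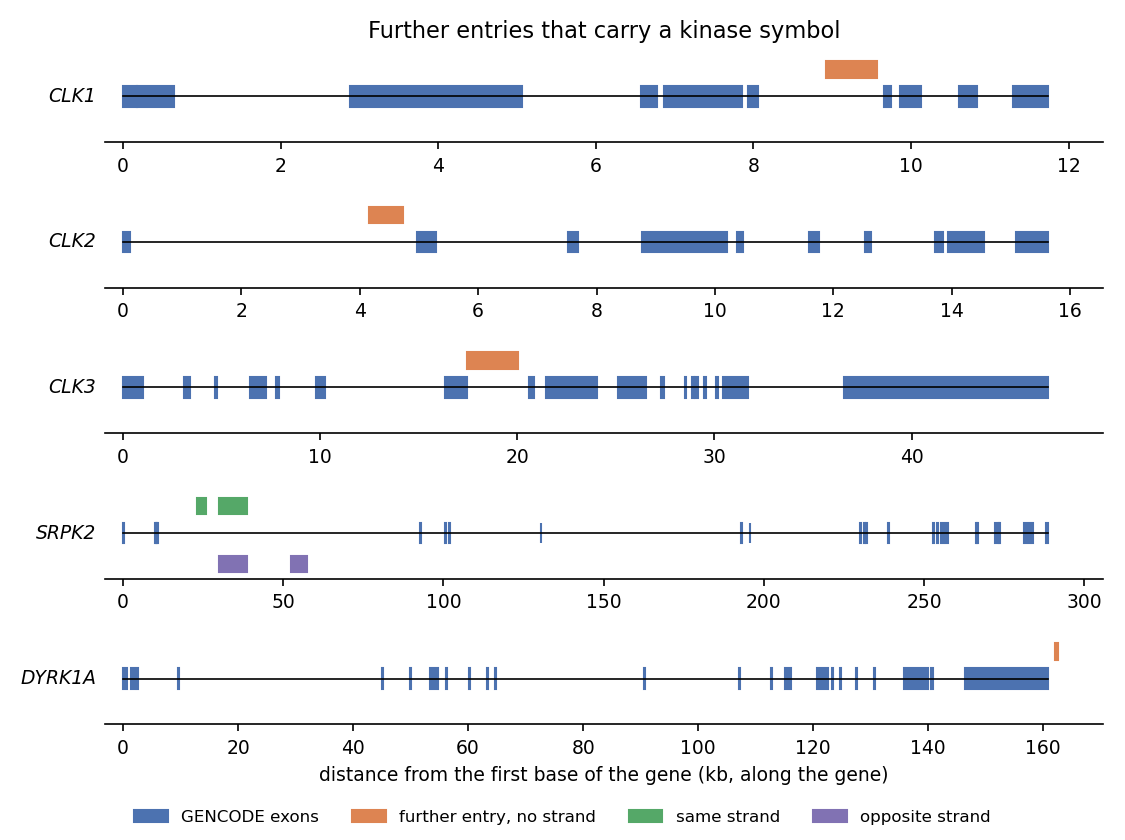
Position of the further entries along CLK1, CLK2, CLK3, SRPK2 and DYRK1A, in kilobases from the first base of the gene, with GENCODE exons in blue, entries without a strand in orange, entries on the strand of the gene in green and entries on the opposite strand in purple. The entries in the first 4 genes fall between exons, and the DYRK1A entry lies past the last exon.

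The other genes of the pathway were read from 4 lists of 48 genes in all, held by 47 entries, of which 46 were tested. Several of these entries also name other genes, among them those of SRPK3 (PLXNB3), DYRK4 (NDUFA9 and GALNT8), PPP2CA (SKP1 and CDKL3), SRSF6 (L3MBTL1 and SGK2) and PPP1CB (SPDYA). CDK11A and CDK11B share 1 entry that also names SLC35E2A and SLC35E2B. The values of such entries, and the list medians and counts, can include reads of those other genes. No entry passed an adjusted p under 0.05 in edgeR, where 0.042% of all entries did, and 3 had an unadjusted p under 0.05, which is 6.52% beside 4.33% of all entries, 2 with higher and 1 with lower values under SF1-8. DESeq2 also called 0 of them at an adjusted p under 0.05. The groups did not overlap in CPM for 15 of the 46 tested entries, beside 35.5% of all entries.

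Relatives of the kinases, among them DYRK1B, the HIPK genes, PRPF4B and the transcription kinases CDK12 and CDK13, had a median log2 fold change of -0.012, and 0 of 12 tested entries had an unadjusted p under 0.05. HIPK1, a nuclear kinase related to DYRK1A, was at 13.1 and 10.5 FPKM under DMSO and at 10.0 and 11.4 FPKM under SF1-8. CDK12, which phosphorylates RNA polymerase II, was at 12.0 and 10.4 FPKM under DMSO and at 10.6 and 10.9 FPKM under SF1-8. Both overlapped between the groups, with log2 fold changes of -0.11 (SE 0.12) and -0.028 (SE 0.078).

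The SR protein substrates had a median log2 fold change of -0.036, and 2 of 13 tested entries had an unadjusted p under 0.05 with higher values under SF1-8, where 1.78% of all entries did, and 0 with lower values. SRSF10, a factor that represses splicing when it is dephosphorylated, was at 8.12 and 7.97 FPKM under DMSO and at 9.02 and 9.46 FPKM under SF1-8 (log2 fold change 0.23, SE 0.072, unadjusted p = 0.024 and adjusted p = 0.970 in edgeR). SRSF11, an SR-related splicing factor, was at 8.51 and 9.33 FPKM under DMSO and at 11.3 and 10.3 FPKM under SF1-8 (log2 fold change 0.30, SE 0.10, unadjusted p = 0.033 and adjusted p = 0.970 in edgeR). For both genes the SF1-8 values were higher than the DMSO values, and neither passed the adjusted threshold. Each kept its direction under all 14 alternatives, but the unadjusted p was 0.05 or more under 4 of them for SRSF10 and under 4 for SRSF11 (0.052 with the replicate block). SRSF2, whose product binds exonic enhancers, was at 46.3 and 21.3 FPKM under DMSO and at 22.0 and 46.5 FPKM under SF1-8. Each group thus held a high and a low library, and its log2 fold change of 0.061 had an SE of 0.46 and ran from -0.56 to 0.67 when a library was left out. SRSF9 was at 31.7 FPKM in both DMSO libraries and at 32.3 and 35.2 FPKM under SF1-8, with a log2 fold change of 0.12 (SE 0.079, adjusted p = 0.970).

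The phosphatases of SR proteins, the importer TNPO3, the chaperones of SRPK1 and the signaling kinases AKT1 and AKT2 had a median log2 fold change of 0.043, with 0 of 13 tested entries at an unadjusted p under 0.05. HSP90AB1, a chaperone that holds SRPK1 in the cytoplasm together with cochaperones, was at 767 and 769 FPKM under DMSO and at 761 and 792 FPKM under SF1-8. HSP90AA1, its stress-inducible paralog, was at 263 and 241 FPKM under DMSO and at 159 and 262 FPKM under SF1-8, so that it was low in SF1-8 1 alone, as DYRK1A was. Without that library its log2 fold change of -0.23 (SE 0.23) was 0.082.

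The partners and substrates of DYRK1A had a median log2 fold change of 0.060, and 1 of 8 entries had an unadjusted p under 0.05, with lower values under SF1-8 (2.54% of all entries in that direction). That entry was NFATC1, whose product leaves the nucleus when DYRK1A phosphorylates it, at 1.71 and 2.03 FPKM under DMSO and at 1.42 and 1.14 FPKM under SF1-8 (log2 fold change -0.52, SE 0.18, unadjusted p = 0.035 and adjusted p = 0.970 in edgeR). NFATC1 was lower in both SF1-8 libraries but did not pass the adjusted threshold, and its unadjusted p was 0.05 or more under 7 of 14 alternatives (0.058 with the replicate block). The summed stromal markers were lower in the same libraries, and their part in the level of NFATC1 was not tested. DCAF7, the adaptor that binds DYRK1A, was at 21.5 and 23.6 FPKM under DMSO and at 22.1 and 22.5 FPKM under SF1-8, a log2 fold change of 0.0077 (SE 0.092). The entry of NFATC3 also names DUS2 and 2 other genes, and it was at 9.54 and 10.9 FPKM under DMSO and at 11.3 and 10.4 FPKM under SF1-8.

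**Figure D5:**
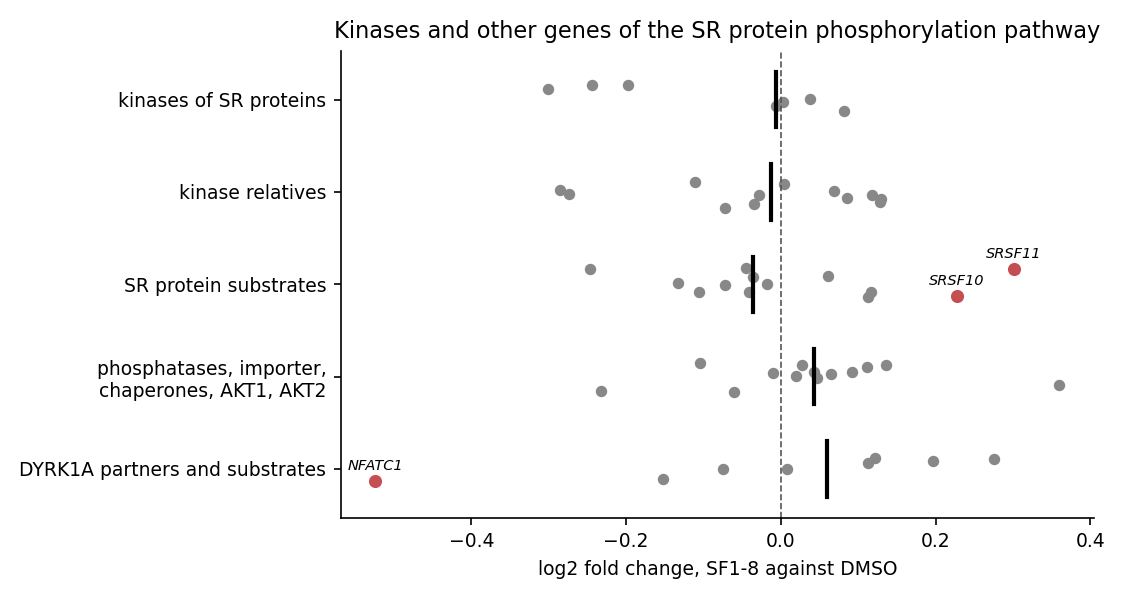
Log2 fold change, SF1-8 against DMSO, of each tested entry of the 7 kinases and of the 4 pathway lists; red marks an unadjusted p under 0.05 in edgeR, black bars are medians and points are shifted vertically for display. The medians lie between -0.036 and 0.060, and 45 of the 46 pathway entries are within 0.4 of 0.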

How the data were processed

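RNA-seq libraries of 4 samples were grouped and numbered by their labels, which state rRNA depletion and a TruSeq total RNA protocol. The authors deposited 1 table with an FPKM value and a whole-number estimated count per library for each entry of a merged assembly. The deposited FPKM is normalized by the authors for length and depth, with 0.0001 wherever the count is 0. The deposited counts were taken as given, with no normalization before the fits described below. Among them 4 is commonest above 0, so each was treated as an estimated count of unknown counting error. The submitters' processing notes name cutadapt, FastQC, Bowtie2, HISAT2, StringTie and hg38, without roles or versions. Of 64873 entries, 2095 name no gene (0.372% of the counts) and were left out.

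Counts were normalized by TMM, filtered by filterByExpr and tested with the quasi-likelihood test of edgeR 4.0.16 in R 4.3.3, with Benjamini-Hochberg adjustment over all 26167 tested entries. All p-values are two-sided. Alternatives used limma 3.58.1 and DESeq2 1.42.0. The script was tested on simulated counts. Sequences and gene models are from GENCODE 29. The length behind an FPKM was scaled on entries of a single transcript, of which 93.3% to 94.2% agreed within 5%. The genes named from the pathway lists are those with an unadjusted p under 0.05 and the 2 with the highest mean FPKM, and the members and lists were chosen with earlier results of these data known. A gene of the lists is not reported here and was left out of their counts. The libraries with the same replicate number did not deviate together (correlation 0.0165), so the numbers were not used as pairs.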

Additional observations from a re-analysis of the deposited data

How the results depend on the processing

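Over 14 alternatives, 0 of 98 kinase fold changes had an adjusted p under 0.05, 82 kept their direction and 16 reversed. The count of all entries past the adjusted threshold was 11, and it was 163 with DESeq2, 31 with no filter on low counts, 0 with the replicate block, 0 in each limma setting and 0 to 30 when 1 library was left out (0 without DMSO 1, 21 without DMSO 2, 30 without SF1-8 1 and 28 without SF1-8 2). Of the pathway entries 0 passed under any of these alternatives. The paired fit with the replicate block turned no kinase past the threshold.

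With library totals alone, the median over all entries moved to -0.058 on the log2 scale, and the log2 fold change was -0.010 for CLK1, -0.044 for SRPK2, -0.0023 for HSP90AB1 and -0.036 for DCAF7. With upper-quartile scaling it was -0.012 for SRPK2 and -0.0073 for DCAF7, and with no filter on low counts it was 0.0017 for SRPK1. With limma it was -0.021 for SRPK2 and -0.015 for DCAF7 at a pseudocount of 1, with or without a filter, -0.023 and -0.016 at a pseudocount of 0.1, and after quantile normalization -0.020 for SRPK2, -0.033 for DCAF7 and -0.28 for HSP90AB1. When 1 library was left out, the log2 fold change ran from -0.049 to 0.13 for CLK1, from -0.45 to 0.11 for CLK2, from -0.022 to 0.018 for SRPK1, from -0.0097 to 0.021 for SRPK2, from -0.70 to 0.021 for DYRK1A, from -0.22 to 0.014 for HIPK1, from -0.088 to 0.039 for CDK12, from -0.56 to 0.67 for SRSF2, from -0.62 to 0.082 for HSP90AA1, from -0.095 to 0.12 for DCAF7 and from -0.016 to 0.26 for NFATC3. The cause was not tested.

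At an unadjusted p under 0.05 there were 3 pathway entries, 1 with the replicate block, 1 with limma after quantile normalization and 2 to 4 when 1 library was left out. With 2 libraries per group, the 95% intervals of the kinases ran from 0.895-fold to 1.11-fold for SRPK1, the narrowest, and from 0.528-fold to 1.25-fold for DYRK1A, the widest.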
